A study of Mus musculus with 16 samples.

Results

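The mitochondrial ribosomal protein genes were taken as all mouse genes on the array whose symbol begins with Mrpl or Mrps followed by a digit, without pseudogenes. The rule found 78 genes of 21154 with a named probe, 49 with an Mrpl symbol (large subunit) and 29 with an Mrps symbol (small subunit). The brightest probe stood for each gene. For testing, a probe had to be well above background throughout 1 group or more (on its 4 arrays), and 77 of the 78 were among the 14063 genes that met this. The remaining gene, Mrpl21, was not well above background on any of the 16 arrays and is left without a value.

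Each array held ventricular RNA of 1 female mouse, 4 independent mice per group, and the study asked how lactation changes the heart when natriuretic peptide receptor 1, the product of Npr1, is present or missing. The groups were nulliparous Npr1+/+ (wild-type), lactating Npr1+/+, nulliparous Npr1-/- (knockout) and lactating Npr1-/-, with lactating mice taken after 2 weeks of lactation. The labels used here give no age, strain, litter size or type of deletion. Whole ventricle holds several cell types, so a lower level from fewer cells of a type and from less RNA per cell cannot be told apart.

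Mitochondria carry their own ribosome, which makes the few proteins encoded by mitochondrial DNA, all of them parts of the respiratory chain and the ATP synthase. Every protein of this ribosome is encoded in the nucleus, made in the cytosol and imported. Some descend from bacterial ribosomal proteins, and others exist only in mitochondria. The heart is rich in mitochondria, and inherited defects of several of these proteins cause cardiomyopathy in people.

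A level here is the log2 of a probe's signal over the 75th percentile of its array. A change is the log2 level of one group mean less another, given ± its standard error (SE). A gene was called at a limma adjusted p under 0.05 over all 14063 genes. That percentile differed between the states. It was 278.2 to 347.4 signal units on lactating arrays and 164.7 to 220.7 on nulliparous arrays, except for 283.6 on nulliparous knockout replicate 4. Other scalings are given below, and the part of this difference in the changes was not tested. On each array 48.5% to 58.6% of probes were well above background, and the small number of arrays limits the precision. Npr1 itself lay close to background (well above it on 9 of 16 arrays, -4.68 to -3.53 in wild-type and -4.26 to -3.63 in knockout mice). Its probe checks nothing about the knockout, so the genotypes rest on the labels. Nulliparous knockout replicate 4 stood apart from its group. On it 56 of the 77 genes lay above every other nulliparous knockout array, against 38.7% of all genes tested, and the knockout counts, the genotype differences and some genes are also given without it. The cardiomyocyte markers (8 of 8) were well above background on every array, and the atrial marker Bmp10 was well above it on none of the 16. Of the 4 atrial markers, 3 were well above it throughout the nulliparous wild-type group and 2 throughout the nulliparous knockout group. In each lactating group 1 was.

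Promoter sequences are shown first, since most of the short motifs searched near the start were more frequent in this family than among all genes. RefSeq windows of the GRCm38.p6 build, from 250 bases before to 50 bases after the start, were found for 69 of the 78 genes. They were searched on both strands for GCGCATGC (the site of NRF1), CCGGAAGT (ETS factors such as GABP), AAGATGGC (YY1) and TCAAGGTCA (oestrogen-related receptors), and no hits of different motifs overlapped in the 69 genes. The YY1 letters were present in 12 of the 69 (17.39%) against 3.19% of all 27025 genes with a window, and the ETS letters in 12 (17.39%) against 4.31%. The NRF1 letters were present in 8 (11.59%) against 3.05%, the receptor letters in 0 against 0.47%, and at least 1 of the 4 motifs in 29 (42.03%) against 10.36%. A match is a description of the sequence and not a measured binding site. The 27025 genes were not matched to the family in gene type, base composition or expression, and the part of these in the shares was not tested.

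Of the 12 YY1 matches, 8 began after the start and read in the direction of the gene. AAGATGGC contains ATG, the letters of a start codon. Whether these 8 matches lie at the start of the coding sequence, and not at a site of YY1, was not checked. The sites below are from genes with large and small changes, with the motif in capitals (GCCATCTT is its reverse complement):
Mrpl37, chr4:107066823-107066850, minus strand: tgcacgggcaAAGATGGCggcgtccagg
Mrps27, chr13:99344790-99344817, plus strand: ggtgcgctccAAGATGGCggctcccatg
Mrpl42, chr10:95501905-95501932, minus strand: agattgaagcAAGATGGCgagcgcgcgg
Mrps11, chr7:78783014-78783041, plus strand: tacgggcgccGCCATCTTtctgtcttcc
Mrps18a, chr17:46111005-46111032, plus strand: ggtgcgttccAAGATGGCggccctcagg
Mrpl49, chr19:6057722-6057749, minus strand: ttgaggcgccAAGATGGCagcagcggtg
Mrps7, chr11:115604148-115604175, plus strand: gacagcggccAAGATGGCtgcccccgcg

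The 12 genes with the YY1 letters had a median change of 1.02 in wild-type lactation (range 0.26 to 1.43) and 0.70 in knockout lactation, and 12 of 12 were called higher in wild-type. The 56 tested genes with a window but without these letters had medians of 0.54 and 0.29, and 43 of 56 were called higher in wild-type. The probes of the 12 were also dimmer, with a median brightness of 3.84 against 4.83 on the log2 scale, and the difference in change was not tested. Genes with the ETS letters had a median change of 0.47 in wild-type lactation and those with the NRF1 letters 0.53, below the medians of 0.58 and 0.60 in genes without them.

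The 150 bases before the start are shown for genes at both ends of the response, Mrps2, Mrpl3, Mrps22 and Mrps27 with large rises and Mrpl23 with a fall, with ETS letters in capitals on either strand. Mrps2 and Mrpl23 held none of the 4 motifs in their whole windows:
Mrps2, chr2:28467916-28468065, plus strand: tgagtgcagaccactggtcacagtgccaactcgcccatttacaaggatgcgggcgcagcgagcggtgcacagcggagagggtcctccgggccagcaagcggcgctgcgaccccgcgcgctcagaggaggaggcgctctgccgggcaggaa
Mrpl3, chr9:105053118-105053267, plus strand: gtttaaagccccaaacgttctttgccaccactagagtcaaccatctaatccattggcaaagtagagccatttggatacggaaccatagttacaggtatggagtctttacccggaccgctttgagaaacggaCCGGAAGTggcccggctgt
Mrps22, chr9:98601680-98601829, minus strand: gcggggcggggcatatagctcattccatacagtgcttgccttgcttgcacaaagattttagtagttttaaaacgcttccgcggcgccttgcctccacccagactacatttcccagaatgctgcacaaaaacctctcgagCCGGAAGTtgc
Mrps27, chr13:99344636-99344785, plus strand: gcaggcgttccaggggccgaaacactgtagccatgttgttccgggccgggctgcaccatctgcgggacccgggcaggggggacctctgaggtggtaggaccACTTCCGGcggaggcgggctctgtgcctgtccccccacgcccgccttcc
Mrpl23, chr7:142532882-142533031, plus strand: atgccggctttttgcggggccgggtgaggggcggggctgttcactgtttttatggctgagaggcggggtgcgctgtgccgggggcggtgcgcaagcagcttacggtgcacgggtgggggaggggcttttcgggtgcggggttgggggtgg

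In wild-type ventricles, lactation was accompanied by higher signal of most mitochondrial ribosomal protein genes. Of the 77 tested, 63 were called higher, 1 lower and 13 not, where 31.8% of all genes were called higher and 18.5% lower. Their median change was 0.56 (1.48-fold), and the median over all genes was 0.10. In 64 of the 77 every lactating array lay above every nulliparous array, against 30.3% of all genes. Among the genes called higher, the rise was at least 1.5-fold in 37 and at least 2-fold in 14. The share of all genes at these limits was not counted. The upper quartile of the change was 0.84, against 0.46 over all genes. Centring arrays on their median shifted all genes (median change 0.28, with 6054 called higher and 1488 lower against 4468 and 2604). The members' median then was 0.75, with 70 called higher.

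**Figure D1:**
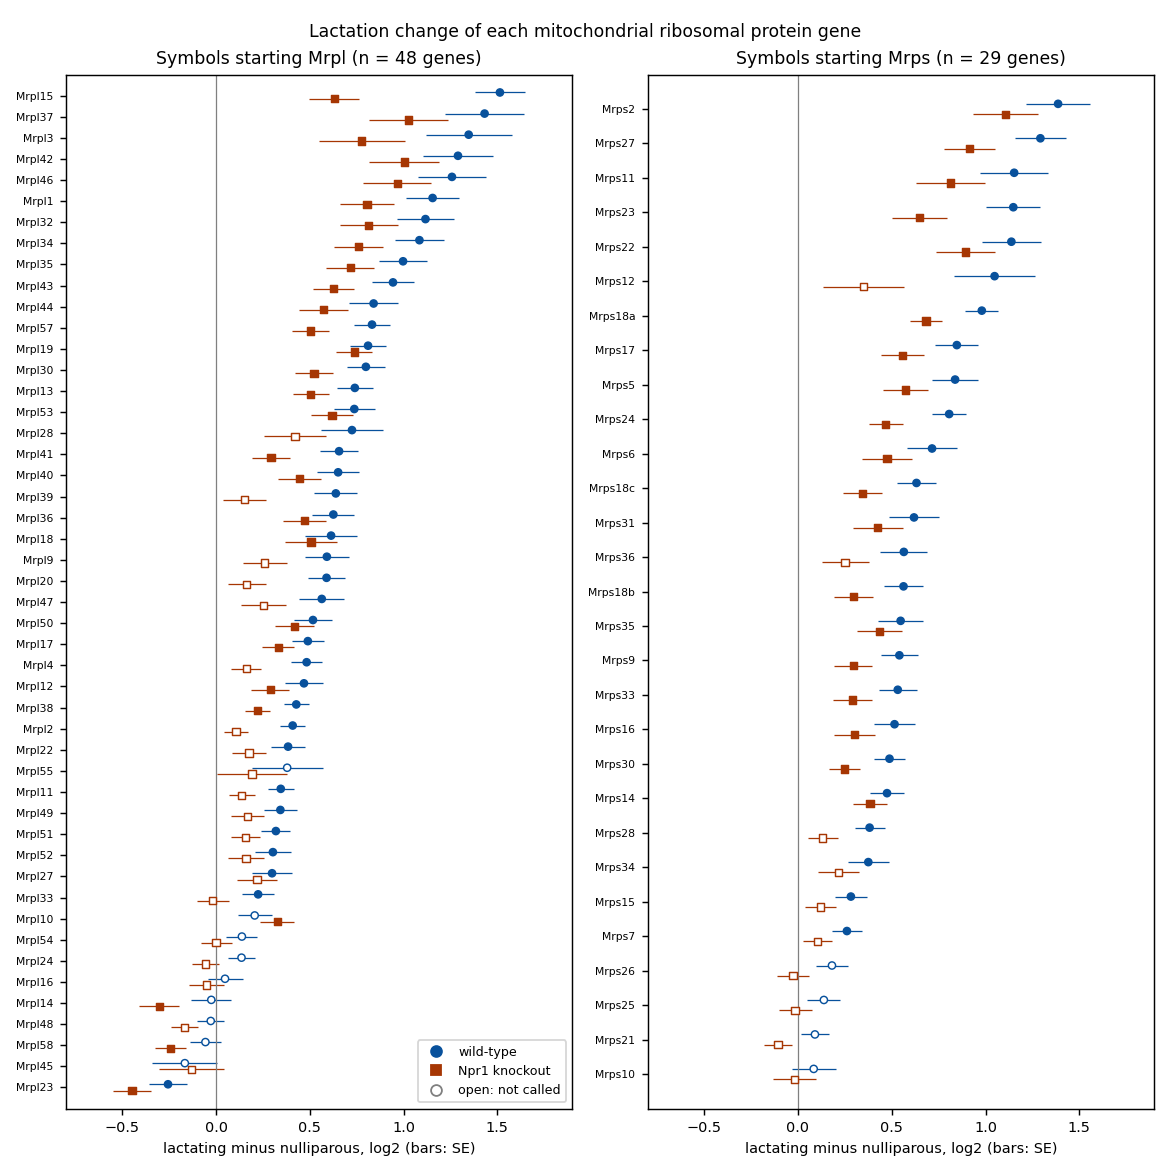
Change in lactation (x axis, log2 of lactating over nulliparous, bars SE) of each tested mitochondrial ribosomal protein gene, by symbol, in wild-type (circles) and knockout (squares), with filled points called at adjusted p under 0.05. Most points lie right of 0 (63 called higher in wild-type, 44 in knockout), wild-type points mostly lie right of knockout points, and Mrpl23 lies left of 0 in both.

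Mrpl15, a large-subunit protein with a bacterial counterpart, changed most in wild-type mice by the brightest probe of each gene. Its level was 3.16, 3.22, 3.08 and 3.01 on the nulliparous and 4.82, 4.57, 4.60 and 4.52 in lactating wild-type mice, a rise of 1.51 ± 0.13 (2.86-fold, adjusted p = 1.74e-05). The knockout levels were 3.44, 3.34, 3.79 and 3.83 in nulliparous and 4.13, 4.28, 4.54 and 3.97 in lactating mice, a rise of 0.63 ± 0.13 (adjusted p = 0.00236). The nulliparous and lactating groups did not overlap in either genotype. Among these 77 genes it had the smallest adjusted p for the interaction, the difference between the 2 lactation changes (-0.88 ± 0.19, adjusted p = 0.222), which was not called. The second, dimmer probe of Mrpl15 rose less, by 1.01 in wild-type (adjusted p = 0.000175) and 0.48 in knockout lactation (adjusted p = 0.0164).

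Mrpl37 and Mrpl42, large-subunit proteins particular to mitochondria, also rose. Mrpl37 was at 0.79, 0.84, 0.85 and 0.58 on the nulliparous and 2.29, 2.19, 2.24 and 2.06 in lactating wild-type mice (1.43 ± 0.21, adjusted p = 0.000175). In knockout mice it was at 1.00, 1.03, 0.62 and 2.02 in nulliparous and 2.05, 2.27, 2.28 and 2.18 in lactating mice (1.03 ± 0.21, adjusted p = 0.00202). Nulliparous knockout replicate 4, at 2.02, lay near the lactating arrays and the other 3 near the wild-type nulliparous level. Mrpl42 rose by 1.29 ± 0.19 in wild-type (adjusted p = 0.000169) and 1.00 ± 0.19 in knockout lactation (adjusted p = 0.00135).

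Mrpl3, a core protein of the large subunit whose human gene is a cardiomyopathy gene, was at 3.85, 3.88, 3.66 and 3.71 on nulliparous and 5.20, 5.14, 5.08 and 5.07 on lactating wild-type arrays. It rose by 1.35 ± 0.23 (2.54-fold, adjusted p = 0.000387). In knockout mice it was at 3.88, 3.90, 3.54 and 5.01 in nulliparous and 4.58, 5.13, 4.81 and 4.93 in lactating mice, a rise of 0.78 ± 0.23 (adjusted p = 0.0139) with overlapping groups. The overlap came from nulliparous knockout replicate 4, at 5.01, since the next highest nulliparous array was at 3.90. Mrpl44, another cardiomyopathy gene of the large subunit, rose by 0.84 ± 0.13 (adjusted p = 0.000256) and 0.57 ± 0.13 (adjusted p = 0.00392).

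Mrpl46 (large subunit) and Mrps11 (small subunit) lie head to head on chromosome 7, with starts 42 bases apart in RefSeq's GRCm38.p6 table, so they share the stretch between them. The YY1 match printed above for Mrps11 lies past the start of Mrpl46 (78783089) and reads in the direction of Mrpl46. It falls outside the Mrpl46 window, so Mrpl46 was counted among genes without these letters. Mrpl46 rose by 1.26 ± 0.18 in wild-type (adjusted p = 0.000156) and 0.97 ± 0.18 in knockout lactation (adjusted p = 0.00133). Mrps11 changed by 1.15 and 0.81 and was named after its values were seen. They were the only head-to-head pair within 1000 bases among the 69 genes with a window.

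In the small subunit, Mrps2, a conserved protein whose human gene is a disease gene, rose most. It was at 1.14, 1.12, 0.82 and 1.24 on the nulliparous and 2.50, 2.38, 2.70 and 2.29 in lactating wild-type mice, a rise of 1.39 ± 0.17 (2.62-fold, adjusted p = 8.85e-05). In knockout mice it was at 1.01, 1.05, 1.21 and 1.89 in nulliparous and 2.26, 2.62, 2.43 and 2.28 in lactating mice, a rise of 1.11 ± 0.17 (2.15-fold, adjusted p = 0.000645). It had the largest knockout rise among these genes, and its groups did not overlap in either genotype.

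Mrps27, an RNA-binding small-subunit protein, was at 0.92, 0.88, 0.88 and 0.96 on nulliparous and 2.41, 2.06, 2.39 and 1.95 on lactating wild-type arrays (1.29 ± 0.14, adjusted p = 4.86e-05). In knockout mice its levels were 1.22, 1.13, 0.99 and 1.69 in nulliparous and 2.08, 2.26, 2.16 and 2.17 in lactating mice (0.91 ± 0.14, adjusted p = 0.000589). Mrps22, whose human gene is tied to hypertrophic cardiomyopathy, rose by 1.14 ± 0.16 (adjusted p = 0.000126) and by 0.89 ± 0.16 in knockout mice (adjusted p = 0.001). The lactating levels of both lay above every nulliparous array of their genotype.

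Mrps12 belongs to the decoding centre, where the ribosome reads the codon. It was at 4.34, 4.30, 4.01 and 4.38 on nulliparous and 5.27, 5.06, 5.49 and 5.39 on lactating wild-type arrays, a rise of 1.05 ± 0.22 (2.07-fold, adjusted p = 0.00133). In knockout mice it was at 4.80, 4.27, 4.80 and 5.33 in nulliparous and 4.52, 5.38, 5.36 and 5.32 in lactating mice (0.35 ± 0.22, adjusted p = 0.203), and the groups overlapped. Without nulliparous knockout replicate 4 the difference was 0.53 (adjusted p = 0.0438), and without lactating knockout replicate 1 it was 0.56 (adjusted p = 0.0331).

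The stalk, which recruits the translation factors, gave smaller changes. Mrpl12, its factor-binding protein, rose by 0.47 ± 0.10 in wild-type (adjusted p = 0.00186) and 0.29 ± 0.10 in knockout mice (adjusted p = 0.0331). The knockout call ended without each of 5 single arrays (adjusted p of 0.0534 to 0.095, nulliparous replicates 2 and 3 and lactating replicates 1, 2 and 4). Mrpl11, at the stalk base, rose by 0.35 ± 0.07 in wild-type (adjusted p = 0.00122) and was not called in knockout lactation (0.14 ± 0.07, adjusted p = 0.123; 0.013 with median centring and 0.0102 with normexp). Mrpl10, which holds Mrpl12 to the ribosome, was the only gene called higher in knockout and not in wild-type mice. It was at 2.71, 2.72, 2.50 and 2.63 on nulliparous and 3.05, 2.67, 2.87 and 2.79 on lactating wild-type arrays (0.21 ± 0.09, adjusted p = 0.0713). It was called in wild-type without nulliparous knockout replicate 4 (adjusted p = 0.0473) and without lactating wild-type replicate 2 (0.0321), and with median centring (0.0133) or normexp (0.0339). The knockout array is in neither wild-type group, so without it the difference stayed at 0.21 and only the shared estimate of spread and the adjustment changed. The second, dimmer probe of Mrpl10 changed by 1.06 in wild-type mice (adjusted p = 0.00017).

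Mrpl45 and Mrpl23 lie near the end of the tunnel through which the new protein leaves. Mrpl45, which holds the ribosome to the inner membrane, was not called in either genotype (-0.17 ± 0.17, adjusted p = 0.446, and -0.13 ± 0.17, adjusted p = 0.57). Both values turned slightly positive with arrays centred on their median, and the knockout value also with normexp. Mrpl23 was the only gene called lower in both genotypes. It was at 6.46, 6.50, 6.28 and 6.56 on nulliparous and 6.24, 6.13, 6.19 and 6.21 on lactating wild-type arrays (-0.26 ± 0.10, adjusted p = 0.0475). This call ended without any of 13 of the 16 single arrays (adjusted p of 0.0559 to 0.12), and with median centring (-0.07, adjusted p = 0.537) or normexp (-0.15, adjusted p = 0.168). Where the array left out was a knockout array, the difference stayed at -0.26 and only the shared estimate of spread and the adjustment changed. In knockout mice Mrpl23 was at 6.61, 6.63, 6.79 and 6.24 in nulliparous and 6.10, 6.17, 6.14 and 6.08 in lactating mice, a fall of 0.45 ± 0.10 (adjusted p = 0.0034). That call held with each array left out.

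**Figure D2:**
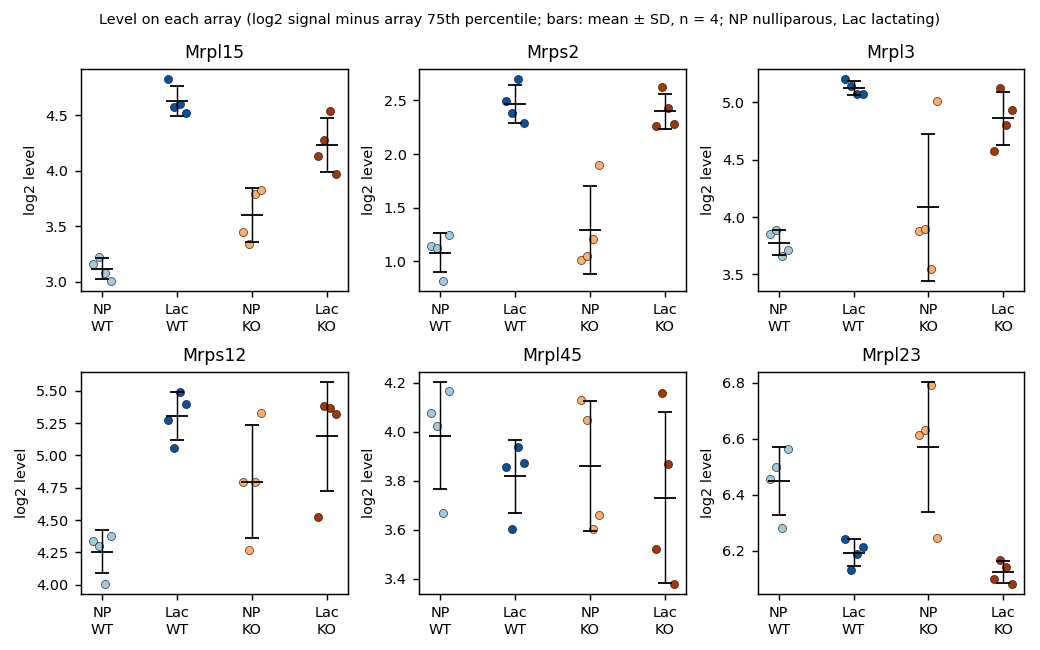
Level of 6 genes on each array (y axes, log2 of signal over the array's 75th percentile; points arrays, lines mean and SD of 4 arrays, axes differ between panels). Lactating arrays lie above nulliparous ones for Mrpl15 and Mrps2 and below for Mrpl23, the Mrpl45 groups overlap, and nulliparous knockout replicate 4 is the high point for Mrps2 and Mrpl3.

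2 more large-subunit genes were called lower in knockout lactation alone. Mrpl14, at the interface of the subunits, was at 7.02, 7.03, 7.28 and 7.03 in nulliparous and 6.84, 6.81, 6.68 and 6.82 in lactating knockout mice (-0.30 ± 0.11, adjusted p = 0.0314). Mrpl58, which frees stalled ribosomes, fell by 0.24 ± 0.08 (adjusted p = 0.0277), from 6.05, 6.08, 5.96 and 5.74 in nulliparous to 5.72, 5.77, 5.67 and 5.69 in lactating mice. Its groups overlapped through nulliparous replicate 4, and those of Mrpl14 did not overlap. The Mrpl14 call ended without each of 4 single arrays, nulliparous knockout replicate 3 (adjusted p = 0.0951) and lactating knockout replicates 2, 3 and 4 (0.0548, 0.0834 and 0.0524). The Mrpl58 call ended without each of 5, nulliparous knockout replicates 1 and 2 (0.0835 and 0.0892) and lactating knockout replicates 1, 3 and 4 (0.0512, 0.0646 and 0.0609). With median centring neither was called (-0.12, adjusted p = 0.399, and -0.06, adjusted p = 0.607), nor with normexp (adjusted p of 0.133 and 0.195). In wild-type mice Mrpl14 (-0.03 ± 0.11) and Mrpl58 (-0.06 ± 0.08) were not called, and both turned positive with median centring.

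3 Mrps genes have other places than their symbols say. Mrps18a and Mrps30, which sit in the large subunit, rose by 0.98 ± 0.09 (adjusted p = 1.74e-05) and 0.49 ± 0.08 (adjusted p = 0.000374) in wild-type mice. In knockout mice they rose by 0.68 ± 0.09 (adjusted p = 0.000437) and 0.25 ± 0.08 (adjusted p = 0.0244). Mrps36, a part of the 2-oxoglutarate dehydrogenase complex of the citric acid cycle, rose by 0.56 ± 0.13 in wild-type (adjusted p = 0.00208) and was not called in knockout mice (0.25 ± 0.13, adjusted p = 0.115). The human disease genes Mrps16 and Mrps34 rose by 0.51 ± 0.11 (adjusted p = 0.00151) and 0.37 ± 0.11 (adjusted p = 0.0107) in wild-type mice. Mrps16 was called in knockout mice (0.30 ± 0.11, adjusted p = 0.0364) and Mrps34 was not (0.21 ± 0.11, adjusted p = 0.123). The Mrps16 knockout call ended without nulliparous replicate 2 or 3 or lactating replicate 1, 2 or 4 (adjusted p of 0.0726, 0.11, 0.0739, 0.0922 and 0.0548). That of Mrps30 ended without nulliparous replicate 1 or 3 or lactating replicate 2 (0.0643, 0.0747 and 0.0579), and Mrps36 was called in knockout mice without nulliparous replicate 4 (0.37, adjusted p = 0.00897).

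Large and small subunits were set side by side without a test of their difference. Of the large-subunit genes by symbol, 38 of 48 were called higher and 1 lower in wild-type lactation (median 0.58), and of the small-subunit genes 25 of 29 higher and 0 lower (median 0.56; 25 higher and 0 lower at an unadjusted p under 0.05). With Mrps18a and Mrps30 moved to the large subunit and Mrps36 left out, the medians were 0.58 and 0.55. The 47 genes with a bacterial counterpart had 39 called higher and a median of 0.56, and the 29 particular to mitochondria had 23 called higher and a median of 0.55. The few genes called lower (Mrpl23, Mrpl14 and Mrpl58) were all large-subunit genes by symbol, as were 48 of the 77 tested. The calls of Mrpl14 and Mrpl58 ended with median centring or normexp.

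Probe brightness went with change inside the family. Across the 77 genes, the wild-type change correlated with the mean brightness at Pearson's r = -0.499, where over all 14063 genes r was -0.001. These are descriptions across genes that share arrays, and brightness depends on the probe as well as on the RNA. Of the 22 genes with 2 probes, the dimmer probe had the larger change in 14 in wild-type and 17 in knockout lactation. The dimmer Mrps2 probe changed by 2.13 against 1.39, and that of Mrps18b, named after its values were seen, by 1.78 against 0.56. Both probes were called higher in 16 of the 22 in wild-type lactation and in 11 in knockout lactation, and 0 had opposite calls. Where probes disagreed, 1 probe was not called, as in Mrps25 (also named after its values were seen), whose dimmer probe was lower (-0.44, adjusted p = 0.00577) and whose brighter probe was not called (0.14, adjusted p = 0.21).

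In knockout ventricles too, more of these genes were higher than lower in lactation. Of the 77 genes, 44 were called higher, 3 lower (Mrpl23, Mrpl14 and Mrpl58) and 30 not, against 25.5% and 18.6% of all genes. The median change was 0.30 (1.23-fold), against 0.06 over all genes. In 38 genes every lactating array lay above every nulliparous array, against 18.9% of all genes. Among the genes called higher, the rise was at least 1.5-fold in 18 and at least 2-fold in 3, limits not counted over all genes. The upper quartile of the change was 0.57, against 0.39 over all genes. The large-subunit genes had 25 of 48 called higher (median 0.29) and the small-subunit genes 19 of 29 (median 0.34). Without nulliparous knockout replicate 4, 51 genes were called higher and 4 lower, with medians of 0.38 and 0.43, and all genes gave 4306 higher and 3188 lower. The knockout rise without that array was 1.31 ± 0.12 for Mrps2, 1.31 ± 0.11 for Mrpl37, 1.26 ± 0.10 for Mrpl42, 1.22 ± 0.08 for Mrpl46, 1.09 ± 0.12 for Mrpl3 and 0.71 ± 0.14 for Mrpl15, each called.

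**Figure D3:**
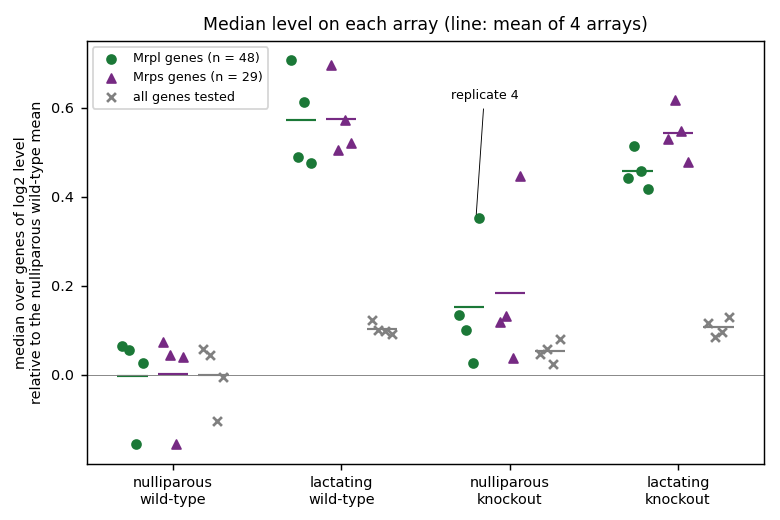
Median over the large-subunit (circles) and small-subunit (triangles) genes by symbol and over all genes tested (crosses) of the log2 level on each array relative to the mean of nulliparous wild-type arrays (y axis), by group (x axis, lines the mean of 4 arrays). Large-subunit medians lie at 0.48 to 0.71 on lactating wild-type arrays and at 0.42 to 0.51 on lactating knockout arrays, with nulliparous knockout replicate 4 at 0.35 and the other 3 at 0.03 to 0.13.

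Array by array, the median of the 77 genes relative to nulliparous wild-type was 0.07, 0.05, -0.16 and 0.03 in nulliparous and 0.70, 0.50, 0.58 and 0.50 in lactating wild-type mice. In knockout mice it was 0.13, 0.10, 0.03 and 0.38 in nulliparous and 0.46, 0.57, 0.49 and 0.47 in lactating mice. The lactating groups of both genotypes overlapped, and replicate 4 of the nulliparous knockout group lay between the states. The large-subunit median lay below the small-subunit median on 4 of 4 lactating knockout arrays, by 0.06 to 0.10, and on either side of it in the other 3 groups.

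The order of the genes by change was similar in both genotypes and not the same: by its brightest probe Mrpl15 ranked 1 in wild-type and 16 in knockout mice. Of the genes called higher, 43 were shared (68.3% of the wild-type calls and 97.7% of the knockout calls), 20 were called in wild-type mice alone and 1, Mrpl10, in knockout mice alone. The 10 genes called in neither were Mrpl16, Mrpl24, Mrpl45, Mrpl48, Mrpl54, Mrpl55, Mrps10, Mrps21, Mrps25 and Mrps26. Across the 77 genes the changes in both genotypes correlated at Pearson's r = 0.943 (0.833 over all genes), as a description over genes that share arrays.

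The wild-type change was the larger in 75 of the 77 genes, against 8593 of all 14063. This was not particular to the family. It was also the larger in 35 of 36 complex I subunits and 71 of 75 cytosolic ribosomal proteins (median differences -0.25 and -0.13). The difference itself was called for 0 of 77, against 0.0924% of all genes, and at an unadjusted p under 0.05 limma gave 13 lower and 0 higher, against 615 lower (4.37%) and 281 higher (2%) of all genes. Its median was -0.24 against -0.06 over all genes. With quantile normalization it was -0.13 against -0.01, and 3 genes had an unadjusted p under 0.05. Without nulliparous knockout replicate 4 the median difference was -0.16, with 73 of 77 larger in wild-type and 0 called. A response that differs by genotype was not shown for any of the 77.

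**Figure D4:**
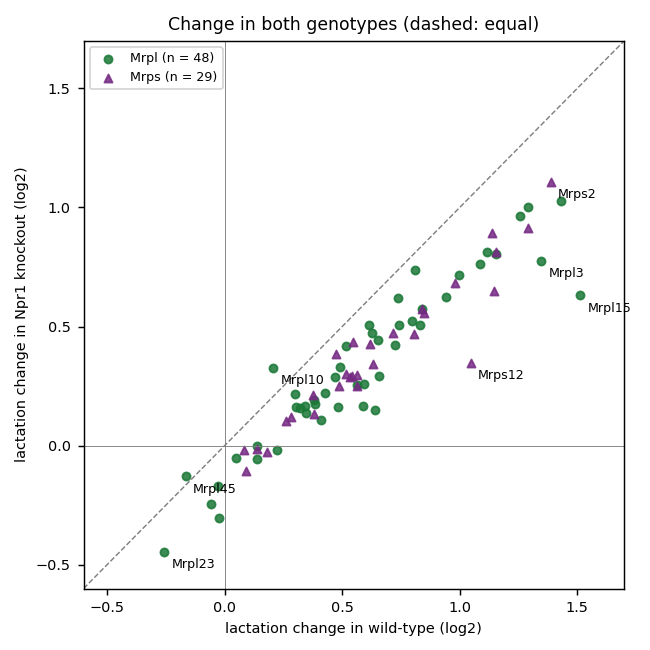
Lactation change of each tested gene in wild-type (x axis) against knockout mice (y axis), both log2, with the dashed line marking equal change. 75 of 77 genes lie below the line, Mrpl15 and Mrps12 far below it, and Mrpl10 above it.

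Between genotypes, 0 of 77 genes were called in nulliparous mice and 0 in lactating mice, against 0.0996% and 0.199% of all genes. At an unadjusted p under 0.05, 17 of the 77 were higher and 0 lower in nulliparous knockout mice, against 914 higher (6.5%) and 300 lower (2.13%) of all genes. In lactating mice 1 was higher and 4 were lower in the knockout, against 596 (4.24%) and 689 (4.9%) of all genes. The median difference was 0.16 in nulliparous mice (0.05 over all genes) and -0.07 in lactating mice. Replicate 4 of the nulliparous knockout group had a median of 0.38. Without it the nulliparous median difference was 0.09 (0.04 over all genes), with 9 genes higher and 1 lower at an unadjusted p under 0.05. In lactating mice the smallest adjusted p was that of Mrpl9, named after its values were seen. It was at 3.52, 3.38, 3.46 and 3.34 in wild-type and 2.95, 2.98, 3.03 and 2.89 in knockout mice (-0.47 ± 0.12, adjusted p = 0.167), and the groups did not overlap. It was called without nulliparous knockout replicate 4 (adjusted p = 0.0104). That array is in neither lactating group, so the difference stayed at -0.47 and only the shared estimate of spread and the adjustment changed. In nulliparous mice Mrpl9 differed by -0.13 ± 0.12 (adjusted p = 0.747). Mrpl9 lies on chromosome 3, as Npr1 does, with 88 protein-coding genes between them. Mrpl24, with 93 genes between it and Npr1, differed by -0.13 ± 0.07 in lactating mice (adjusted p = 0.661). The other family members on chromosome 3 (Mrps21, Mrpl47 and Mrps28) were not called either, and the part of the location was not tested.

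Other genes of the same machinery were described from lists chosen with earlier results known. The shares of all genes called higher, 31.8% in wild-type and 25.5% in knockout lactation, are the background for each count higher. Those called lower, 18.5% and 18.6%, are the background for each count lower. Genes that build the mitochondrial ribosome had 13 of 23 tested called higher and 0 lower in wild-type and 12 higher and 0 lower in knockout lactation. Mettl15, a methyltransferase of the small-subunit RNA, rose by 1.16 ± 0.20 (adjusted p = 0.000411) and Mrm2, a methyltransferase of the large-subunit RNA, by 1.11 ± 0.24 (adjusted p = 0.00172). In knockout mice Mrm2 rose by 1.16 ± 0.24 (adjusted p = 0.00209) and Mettl15 by 0.80 ± 0.20 (adjusted p = 0.00577). Ddx28, a helicase of large-subunit assembly, rose by 0.80 ± 0.16 in wild-type mice (adjusted p = 0.00108) and Mettl17, of small-subunit assembly, by 0.83 ± 0.28 in knockout mice (adjusted p = 0.0288).

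Of the translation factors, 9 of 13 were called higher in wild-type and 7 in knockout mice. Taco1, an activator of cytochrome c oxidase subunit synthesis, rose by 1.99 ± 0.23 (adjusted p = 7.35e-05) and 1.62 ± 0.23 (adjusted p = 0.000495), and the elongation factor Tsfm by 1.17 ± 0.19 (adjusted p = 0.000282) and 1.08 ± 0.19 (adjusted p = 0.000996). Gfm1, a translocation factor, rose by 1.01 ± 0.18 in wild-type (adjusted p = 0.000513) and Guf1 by 0.89 ± 0.21 in knockout mice (adjusted p = 0.00419). The initiation factor Mtif2, named after its values were seen, was the 1 called lower (-0.58 and -0.56).

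Of 19 tested genes that charge mitochondrial tRNAs, 6 were higher and 1 lower in each genotype. The share higher was 31.6%, against 31.8% of all genes in wild-type and 25.5% in knockout lactation, so in wild-type mice it lay at the background. Lars2, for leucine, rose by 2.28 ± 0.35 in wild-type (adjusted p = 0.000213) and 1.22 ± 0.35 in knockout mice (adjusted p = 0.0119). Yars2, for tyrosine, rose by 1.66 ± 0.22 (adjusted p = 0.000116) and 1.26 ± 0.22 (adjusted p = 0.00111). Qrsl1, of the amidation enzyme, rose by 1.21 ± 0.19 (adjusted p = 0.000225) and 0.89 ± 0.19 (adjusted p = 0.00233). The lower genes, named after their values were seen, were Gatb in wild-type (-0.35) and Wars2 in knockout mice (-0.58). Mitoribosome subunits with other names gave 2 of 5 higher in wild-type, Ptcd3 (0.43 ± 0.09, adjusted p = 0.00107) and Chchd1 (0.26 ± 0.09, adjusted p = 0.0328). In knockout mice limma called 0 of the 5 (1 higher and 0 lower at an unadjusted p under 0.05).

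Genes that copy and transcribe the mitochondrial genome had 7 of 10 called higher in wild-type and 5 in knockout mice. Tefm, the transcription elongation factor, rose by 1.40 ± 0.18 (adjusted p = 9.87e-05) and 1.15 ± 0.18 (adjusted p = 0.000659). Tfam, which packs and activates the mitochondrial DNA, rose by 1.30 ± 0.22 (adjusted p = 0.000366) and 1.09 ± 0.22 (adjusted p = 0.00188). Ssbp1, which binds single-stranded DNA, rose by 0.62 ± 0.11 in wild-type (adjusted p = 0.000446) and the helicase Twnk by 0.58 ± 0.14 in knockout mice (adjusted p = 0.00543).

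The regulators of mitochondrial biogenesis did not rise as a group, with 3 of 12 higher and 4 lower in wild-type and 2 higher and 4 lower in knockout mice. Ppargc1a and Ppargc1b, coactivators that switch on mitochondrial genes, fell by 0.60 ± 0.19 (adjusted p = 0.0155) and 1.46 ± 0.22 (adjusted p = 2e-04) in wild-type mice. In knockout mice they fell by 1.17 ± 0.19 (adjusted p = 0.00067) and 0.82 ± 0.22 (adjusted p = 0.00836). Pprc1 (-0.67 and -0.54) and Nrf1 (-0.41 and -0.43) were the other 2 called lower. Myc rose by 1.89 ± 0.24 (adjusted p = 9.37e-05) in wild-type and 0.83 ± 0.24 (adjusted p = 0.0128) in knockout mice, above background on 3 of 4 nulliparous wild-type arrays. Esrrg, an oestrogen-related receptor, rose by 1.00 ± 0.17 (adjusted p = 0.00037) in wild-type and 0.81 in knockout mice, and Gabpb1 by 0.30 in wild-type mice. Yy1 was not called (-0.07 ± 0.08, adjusted p = 0.528, and -0.02 ± 0.08, adjusted p = 0.888), nor was Gabpa (0.29 ± 0.12, adjusted p = 0.0611, and 0.15 ± 0.12, adjusted p = 0.332).

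**Figure D5:**
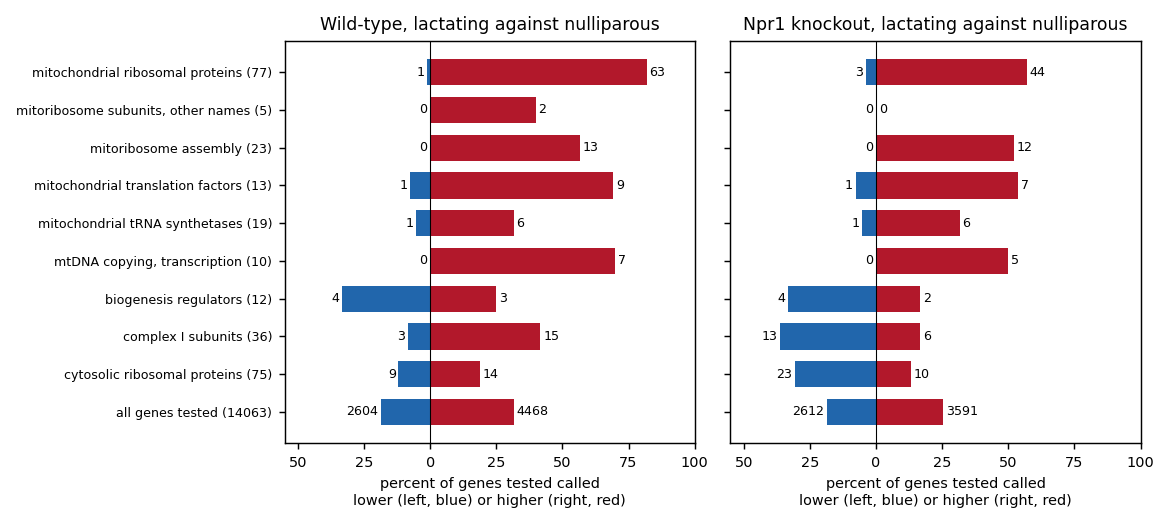
Percent of tested genes called lower (left) or higher (right) in lactation, by list (numbers of tested genes in brackets, counts beside the bars), in wild-type and knockout mice. Mitochondrial ribosomal proteins have 63 of 77 higher in wild-type and 44 in knockout mice, and cytosolic ribosomal proteins 14 and 10 of 75.

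The proteins of the cytosolic ribosome, which translates nuclear messages, gave 14 of 75 higher and 9 lower in wild-type lactation (median -0.01). In knockout lactation they gave 10 higher and 23 lower (median -0.14). Their share higher was 18.7% in wild-type and 13.3% in knockout lactation, against 31.8% and 25.5% of all genes. Their share lower was 12% and 30.7%, against 18.5% and 18.6%. The complex I subunits had 15 of 36 higher and 3 lower in wild-type (median 0.13) and 6 higher and 13 lower in knockout mice (median -0.09). No test of the difference between these lists and the mitochondrial ribosomal proteins was made.

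Markers of some cell types moved with lactation. Of all genes, 31.8% were called higher and 18.5% lower in wild-type lactation, and 25.5% and 18.6% in knockout lactation. The 6 macrophage markers summed to 20.2 to 24.2 on nulliparous and 36.5 to 43.1 on lactating wild-type arrays, in linear units of the array's 75th percentile, and to 18.2 to 34 and 40 to 49 on knockout arrays, with 5 of 6 called higher in each genotype. The cardiomyocyte markers summed to 4790 to 5760 and 4330 to 4830 in wild-type and to 4690 to 6290 and 3860 to 4410 in knockout mice. In wild-type lactation 3 of 8 were higher and 2 lower, and in knockout lactation 2 were higher and 4 lower. Of the 5 fibroblast markers 2 were higher and 1 lower in wild-type and 3 higher in knockout mice, and of the 3 erythroid markers 2 and 3 were higher. The fibroblast sums were 281 to 336 on nulliparous and 252 to 281 on lactating wild-type arrays. On knockout arrays they were 275 to 321 and 243 to 302. Of the 5 endothelial markers 1 was higher in wild-type and 2 in knockout mice, and 0 were lower. Their sums were 38.6 to 61.9 on nulliparous and 39.1 to 58.5 on lactating wild-type arrays, and 41.3 to 65.6 and 52 to 60.7 on knockout arrays. Of the 4 adipocyte markers 2 were higher in wild-type and 2 lower in knockout lactation. In knockout against wild-type mice, 1 of them was lower in nulliparous and 4 were lower in lactating mice. Of the atrial markers, 2 were lower in wild-type and 3 in knockout lactation. Their sums were 6.71 to 11.6 on nulliparous and 3.08 to 3.86 on lactating wild-type arrays. On knockout arrays they were 2.69 to 23.3 and 2.81 to 3.5. The part of these cell types in the values of the mitochondrial ribosomal protein genes was not tested.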

How the data were processed

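Total RNA (200 ng) was labelled with Cy3 and hybridised to one-colour Agilent arrays. The authors extracted spots with Agilent Feature Extraction (version 10.7.3.1, per the submitters' processing notes). The deposited scanner values are intensity on a linear scale, background-subtracted within each array without scaling across them, as the file headers state. A second deposited table holds the authors' log2 values per probe; how they were scaled, centred and signed is not given in the sources used here. Each column correlated at r = 1 with the level used here (below) less the nulliparous wild-type mean, so positive means higher than that group; column medians ran from -0.382 to 0.0318.

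Here the 59305 non-control spots were averaged in log2 into 55681 probes, with outlier spots left out and no probe saturated. Probes were named through RefSeq accessions (GRCm38.p6 table, 28026 probes, 21154 genes); the headers name mm9, so no array coordinates are printed. Levels are log2 of signal over the array's 75th percentile. A model with 4 group means (12 residual degrees of freedom) was fitted to all 14063 tested genes with limma 3.58.1 in R 4.3.3, and p-values were Benjamini-Hochberg adjusted over all of them. The code was tested on simulated data, and figures were drawn with matplotlib 3.10.9. Members and lists were chosen with earlier results of these data known. Named were the 6 largest called rises and falls per lactation contrast, up to 4 called genes per genotype contrast, and genes with a known special role; for other lists, up to 3 called genes per contrast.

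Alternatives were quantile normalization, median centring, normexp (offset 50, on the median spot signal that the files hold), dropping the filter, requiring all 16 arrays, averaging a gene's probes, the replicate number or slide as a block, each slide alone, the authors' table and each array left out. Fits of every probe of a gene, and reading nulliparous knockout replicate 4 as standing apart, were added after seeing the data. The 2 slides held 2 arrays of each group, and a group kept its place on both, so array place and group cannot be told apart.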

Additional observations from a re-analysis of the deposited data

Results flagged for a closer look

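In 100 groups of 4 arrays examined (4 groups each for the named genes and for the subunit medians), 6 had 1 array farther from the other 3 than Dixon's 95% limit allows, where chance gives about 1 in 20. Mrpl14 was low on nulliparous wild-type replicate 3 (6.65, against 7.03 to 7.08) and high on nulliparous knockout replicate 3 (7.28, against 7.02 to 7.03). Mrpl58 was high on lactating wild-type replicate 1 (5.92, against 5.77 to 5.79). Mrps12 was low on lactating knockout replicate 1 (4.52, against 5.32 to 5.38). Nulliparous wild-type replicate 3 was low in the median of the large-subunit genes (-0.16, against 0.03 to 0.06) and of the small-subunit genes (-0.16, against 0.04 to 0.08) relative to its group's mean. The median over all genes on that array was -0.10.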

How the results depend on the processing

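The count of genes called higher stayed within 1.5 times of 63 (wild-type) and 44 (knockout) under the alternatives, except on slide 2 alone (1 and 0), where all genes gave 67 higher and 19 lower in wild-type and 0 in knockout, although 74 and 64 of 77 changes were positive; slide 1 alone gave 51 and 42. Leaving out single arrays gave 61 to 64 and 35 to 51. The count lower in wild-type lactation (1, Mrpl23) was 3 with quantile normalization, 0 with median centring, normexp, the replicate block, slide as a block, slide 2 alone or the authors' table, and 0 to 1 without single arrays. The count lower in knockout lactation (3) was 1 with median centring, normexp or no filter, 0 on slide 2 and 1 to 4 without single arrays. In lactating mice 0 to 1 gene differed by genotype without single arrays. Median changes of large and small subunits in wild-type were 0.45 and 0.43 with quantile normalization, 0.76 and 0.74 with median centring, and small 0.66 with normexp. In knockout mice they were 0.47 and 0.52 with median centring, and large 0.39 with normexp or the mean of a gene's probes. Signs turned for Mrpl14 in wild-type (0.16 with median centring, 0.093 with normexp, 0.024 on slide 2, -0.13 to 0.015 without single arrays) and Mrpl58 (0.13 and 0.036 with median centring and normexp). They also turned for Mrpl45 (0.016 in wild-type and 0.053 in knockout with median centring, 0.0086 in knockout with normexp). None of the turned values was called, and the causes were not tested. Same-numbered arrays did not deviate together (r -0.136 to 0.178 over 24 pairs), and with the replicate block 63 genes were higher in wild-type and 44 higher and 3 lower in knockout lactation. The number of arrays and, for Mrpl21, signal at background limit these results.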
